A study of Mus musculus with 7 samples.

Results

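The cytosolic ribosomal proteins are the protein components of the ribosomes that translate nuclear mRNAs in the cytoplasm. Their genes were taken by symbol as Rpl or Rps followed by a number, together with Rpsa, Rplp0, Rplp1 and Rplp2, without the Rps6k kinases and without pseudogenes. The mouse RefSeq table holds 88 such genes, of which 86 had a named probe on the array, among 21154 named genes with a probe. Of the 86 genes, 84 had a probe that passed the filter on dim signals, as did 13697 named genes in all. Each of the 84 probes used was well above background on all 7 arrays and none was saturated. Rps19bp1, whose symbol starts like those of the family, encodes a binding partner of Rps19 and was left out.

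The signals come from the heart apex of male C57BL/6 mice aged 3 months, measured on single-colour Agilent arrays. All mice carried p38α (Mapk14) alleles with loxP sites around exons 2 and 3 on both chromosomes, all received 500 µg of hydroxytamoxifen a day for 10 days from 6 weeks of age, and all received angiotensin II at 1.5 mg/kg a day from osmotic mini pumps for 48 hours. The 3 KO hearts additionally carried the heterozygous α-MHC mercremer transgene, a tamoxifen-inducible Cre recombinase under a promoter active in cardiomyocytes, while the 4 control hearts carried no Cre. Effects of Cre itself and of the p38α deletion therefore cannot be told apart, and cells other than cardiomyocytes keep the gene. The study's design names 4 KO hearts, of which the other one was not analysed here. Labels name each sample as its own heart. Whole tissue was measured, so fewer cells of a type and less RNA per cell cannot be told apart.

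Ribosomal proteins assemble with ribosomal RNA in the nucleolus into a small subunit, which reads the mRNA, and a large subunit, which joins the amino acids. Their mRNAs begin with a tract of pyrimidines that places their translation under the control of the mTORC1 kinase, and their levels are held close to one another in most tissues. Striated muscle is an exception for 1 protein: heart and skeletal muscle express Rpl3l, a paralog that takes the place of Rpl3 in part of their ribosomes.

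Mapk14, the deleted gene, had log2 signals of 3.74, 3.76 and 3.71 in the KO hearts, against 3.52, 3.40, 3.47 and 3.67 in the control hearts (difference 0.22, adjusted p = 0.202 by limma). Where its probe lies relative to the deleted exons is not given in the sources used here, so it does not check the deletion. Each array held 55681 probes, of which between 46.0% and 49.7% were well above background. All arrays lay on 1 slide in 2 rows. KO heart 1 and control hearts 1 and 2 lay in the first row, and KO hearts 2 and 3 and control hearts 3 and 4 in the second. Differences are therefore also given with the row as a block and within each row. Slide columns each held hearts of 1 group, so column and group cannot be told apart.

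In the KO hearts, ribosomal protein transcripts stood slightly higher almost throughout the family, with 1 opposite exception, the muscle paralog Rpl3l. The difference in log2 signal between KO and control hearts was above 0 for 81 of the 84 genes, which is 96.4%, against 45.9% of all features tested. The median difference was 0.29, a 1.22-fold higher signal, and the quartiles were 0.20 and 0.39. The median over all 22344 features was -0.06. Few single genes passed the test: 6 rose and 1 fell, 8.33% of the family against 25.2% of all features.

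The test was limma on log2 signals relative to the 75th percentile of each array, and p-values were adjusted over the whole array by the Benjamini-Hochberg method, with 0.05 as the threshold. Of all features, 10.2% rose and 15% fell, and 25.2% passed in either direction. The shares among the ribosomal protein genes were 7.14% and 1.19%, so their calls were no more frequent than over the whole array. At an unadjusted p of 0.05, 33 genes were higher in KO hearts, 39.3% of the family, against 18.7% of all features, and 1 was lower, against 23.8% of all features. With the slide row as a block, 35 rose and 1 fell, where 16.0% and 21.6% of all features did. Quantile normalization gave 26 that rose and 1 that fell, where 11.7% and 14.6% of all features did. The count that rose was 13 without control heart 2, 4 without KO heart 3 and 1 without control heart 1, where 12.7%, 11.1% and 5.71% of all features rose. It was 0 without any 1 of KO heart 1, KO heart 2, control heart 3 or control heart 4, where 0.0895%, 1.32%, 4.30% and 3.45% of all features rose. In those 4 fits 6, 13, 14 and 12 genes were higher at an unadjusted p of 0.05, against 11.5%, 14.5%, 15.1% and 14.1% of all features.

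**Figure D1:**
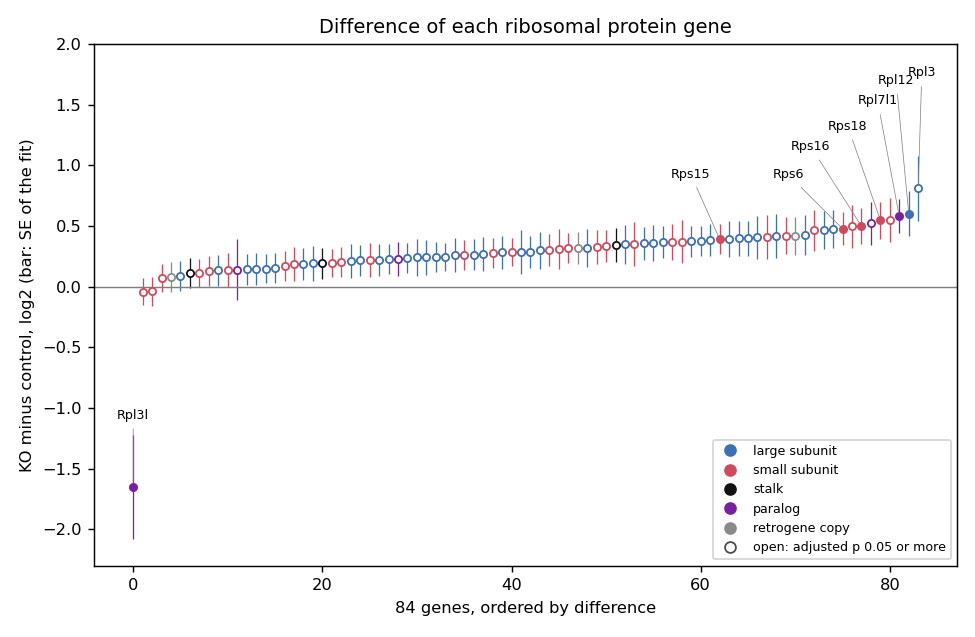
Difference in log2 signal, KO minus control, for each of the 84 ribosomal protein genes ordered by size, with bars for the standard error of the limma fit and colours for the class of gene. Filled points passed at an adjusted p of 0.05: 6 genes on the right rose and Rpl3l on the far left fell, while Rpl3, the highest point, did not pass.

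By heart, the family moved as a block. Each gene's log2 signal was set against its own mean over the 7 hearts, and the median of these deviations over the 84 genes was 0.23, 0.17 and 0.11 in the KO hearts, against 0.02, -0.01, -0.24 and -0.27 in the control hearts. The groups did not overlap, and the spread among control hearts followed the slide row, the 2 hearts of the first row being the higher ones. KO heart 1 was the highest of the 7 hearts for 49 genes and KO heart 2 for 26. Control heart 4 was the lowest for 51 genes and control heart 3 for 29. For 55 genes, 65.5% of the family, every KO heart lay above every control heart, against 17.6% of all features. Rpl3l alone had every KO heart below every control heart, 1.19% of the family, against 21.4% of all features.

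**Figure D2:**
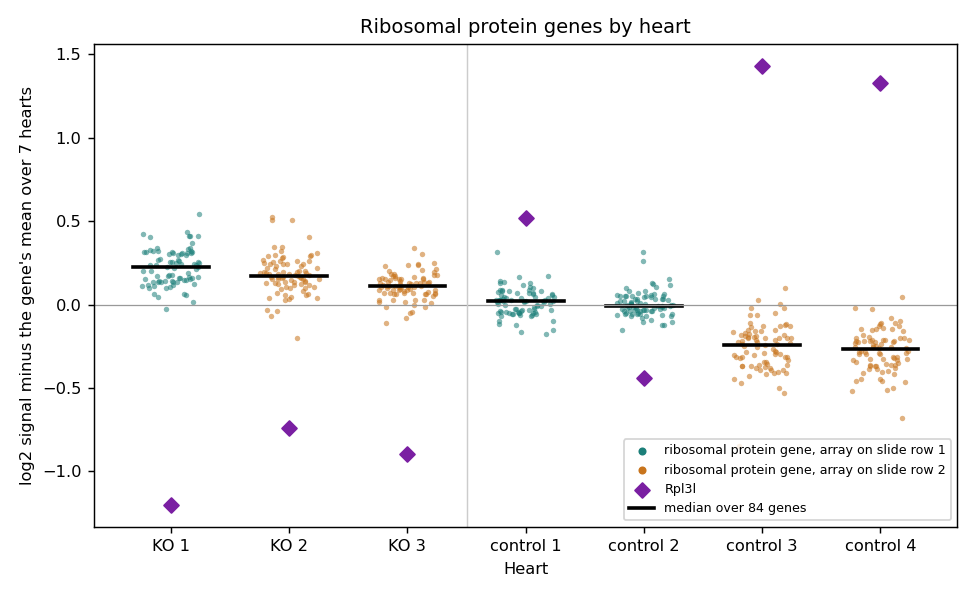
Log2 signal of each ribosomal protein gene minus its own mean over 7 hearts, by heart, coloured by slide row, with the median over 84 genes as a black line and Rpl3l as diamonds. The medians were 0.23, 0.17 and 0.11 in KO hearts and 0.02, -0.01, -0.24 and -0.27 in control hearts, and Rpl3l ran the other way.

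The genes varied little between hearts of 1 group. The median SD over hearts was 0.08 among KO hearts and 0.16 among control hearts, against 0.22 and 0.24 for all features. Part of the control spread lay between the slide rows. Both control hearts of the first row were above both of the second for 74 genes, 88.1% of the family against 25% of all features, with a median row difference of 0.26 for the family and -0.07 for all features. KO heart 1, the only one in the first row, was above the other KO hearts for 51 genes, 60.7% against 23.6% of all features.

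Within each slide row the family stood higher in KO hearts too. The median difference was 0.22 in the first row, 0.40 in the second, and 0.32 with the row as a block. In the first row KO heart 1 exceeded both control hearts for 77 genes, 91.7% against 41.1% of all features, and lay below both for 3, 3.57% against 43.9%. In the second row both KO hearts exceeded both control hearts for 79 genes, 94.0% against 28.9% of all features, and lay below both for 1, 1.19% against 37.9%. With so few hearts in a row, 0 genes passed in the first row, where 0 were higher and 1 was lower at an unadjusted p of 0.05, and 1 rose and 1 fell in the second. Of all features, 1.1% rose and 2.14% fell in the first row, and 3.11% and 3.44% in the second.

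**Figure D3:**
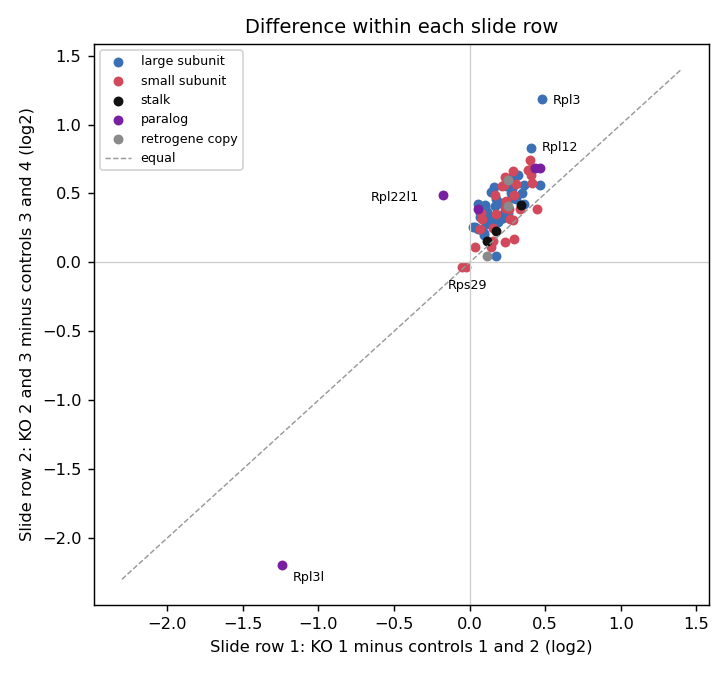
Difference in log2 signal, KO minus control, in the second slide row (vertical) against that in the first (horizontal), 1 point per ribosomal protein gene, coloured by class, with a dashed line of equality. Most points lie above 0 on both axes and above the line, Rpl3l lies below 0 on both axes, Rps29 lies just below 0 on both, and Rpl22l1 is below 0 in the first row only.

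The large subunit proteins gave 42 measured genes besides the stalk proteins. All 42 had a difference above 0, with a median of 0.28 and a range of 0.09 to 0.81, and 1 passed. That gene was Rpl12, which lies at the base of the stalk where translation factors bind. Rpl12 had log2 signals of 7.90, 7.90 and 7.71 in the KO hearts, against 7.46, 7.54, 6.96 and 6.97 in the control hearts. The KO hearts were all higher, and the difference was 0.60 ± 0.19 (SE of the fit, adjusted p = 0.0494 by limma), a 1.52-fold rise.

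The small subunit proteins gave 31 measured genes, 29 of them with a difference above 0, a median of 0.31 and a range of -0.04 to 0.55. Of these 4 rose and none fell. Rps18, in the head of the small subunit, had 6.99, 7.20 and 6.82 in the KO hearts, against 6.52, 6.65, 6.37 and 6.28 in the control hearts. The groups did not overlap, and the difference was 0.55 ± 0.15 (adjusted p = 0.0360). Rps16, whose tail reaches the tRNA that carries the growing peptide, had 8.50, 8.39 and 8.37 in KO hearts, against 8.04, 8.16, 7.76 and 7.74 in control hearts. It too was higher in every KO heart, by 0.50 ± 0.15 (adjusted p = 0.0448).

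Rps6, the substrate that gives the S6 kinases their name, had 7.81, 7.78 and 7.64 in the KO hearts, against 7.37, 7.41, 7.12 and 7.15 in the control hearts. All KO hearts were above all control hearts, with a difference of 0.48 ± 0.13 (adjusted p = 0.0376). Rps15, a head protein needed for the export of the small subunit from the nucleus, had 6.60, 6.44 and 6.48 in KO hearts, against 6.12, 6.19, 5.99 and 6.15 in control hearts. Its rise of 0.39 ± 0.12 (adjusted p = 0.0487) was the smallest of the 6. Its control hearts of both slide rows overlapped, whereas in the other 5 genes those of the first row were the higher ones.

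**Figure D4:**
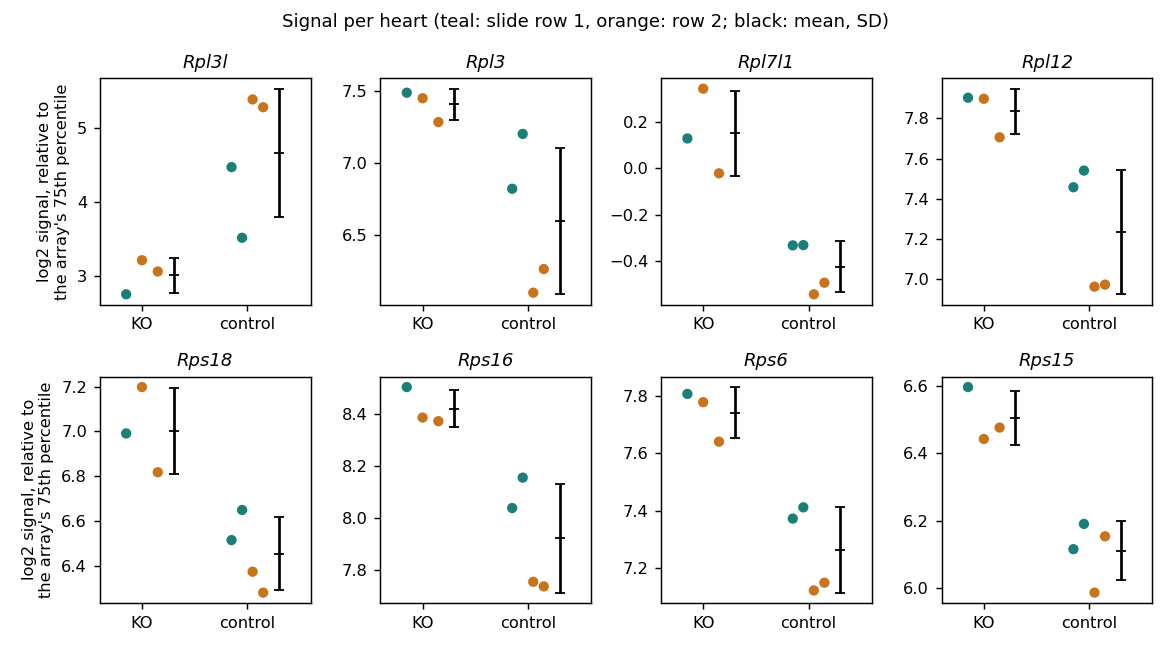
Log2 signal relative to the array's 75th percentile in each heart for the 7 genes that passed and for Rpl3, with points coloured by slide row and black bars for the mean and SD of each group (3 KO hearts left, 4 control hearts right). KO hearts lie below all control hearts for Rpl3l and above all control hearts for the 7 other genes.

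These calls were close to the threshold. With 1 heart left out, Rpl7l1, the paralog described below, still passed in 3 of the 7 fits, Rps18 and Rps6 in 2, Rpl12 and Rps16 in 1, and Rps15 in 0, where its adjusted p was between 0.0509 and 0.187 by limma. Control heart 2 was the heart left out in 5 of those fits and KO heart 3 in 3, and Rpl7l1 also passed without control heart 1. The differences themselves moved less, from 0.51 to 0.70 for Rpl12, from 0.45 to 0.64 for Rps18 and from 0.35 to 0.42 for Rps15. Dimmer probes of these genes did not all pass by limma over all probes kept. Those of Rps15, Rpl12 and Rps18 gave 0.24, 0.53 and 0.51 (adjusted p = 0.199, 0.0522 and 0.0504). Those of Rps6 gave 0.50 and 0.18 (adjusted p = 0.0363 and 0.436). Those of Rps16 passed, with 0.51 and 0.52 (adjusted p = 0.0449 and 0.0314). Rpl7l1 had no other probe.

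The promoters of the genes that passed are shown because the family stood higher together. Each sequence is the RefSeq promoter on build GRCm38.p6, from 150 bases before to 25 bases after the annotated start, in the direction of the gene. Capitals mark the motifs CTCTTT and CTTTCC (short pyrimidine tracts), CCGGAAG (an ETS-type site), TATAAA (the box that positions the start), CACGTG (an E-box) and GGGCGG (a GC box), on either strand, and overlapping matches are both marked.
Rpl12 (chr2:32961562-32961736, plus strand): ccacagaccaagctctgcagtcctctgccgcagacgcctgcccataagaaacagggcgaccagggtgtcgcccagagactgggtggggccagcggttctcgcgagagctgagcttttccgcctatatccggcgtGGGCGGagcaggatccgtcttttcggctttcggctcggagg
Rpl7l1 (chr17:46782632-46782806, minus strand): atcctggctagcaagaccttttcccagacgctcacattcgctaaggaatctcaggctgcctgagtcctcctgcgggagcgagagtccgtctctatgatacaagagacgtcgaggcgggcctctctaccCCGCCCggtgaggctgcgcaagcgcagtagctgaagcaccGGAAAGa
Rps18 (chr17:33955641-33955815, minus strand): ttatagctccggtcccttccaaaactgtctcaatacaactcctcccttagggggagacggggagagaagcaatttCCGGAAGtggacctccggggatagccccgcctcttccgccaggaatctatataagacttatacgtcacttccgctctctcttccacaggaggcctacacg
Rps16 (chr7:28350539-28350713, plus strand): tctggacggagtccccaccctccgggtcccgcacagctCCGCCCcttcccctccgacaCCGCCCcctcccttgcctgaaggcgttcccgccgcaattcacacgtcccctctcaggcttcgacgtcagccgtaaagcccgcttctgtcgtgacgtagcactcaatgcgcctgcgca
Rps6 (chr4:86857343-86857517, minus strand): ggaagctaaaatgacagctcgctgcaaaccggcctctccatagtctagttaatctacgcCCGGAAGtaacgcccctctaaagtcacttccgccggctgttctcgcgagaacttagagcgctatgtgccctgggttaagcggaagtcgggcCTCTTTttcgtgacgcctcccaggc
Rps15 (chr10:80292281-80292455, plus strand): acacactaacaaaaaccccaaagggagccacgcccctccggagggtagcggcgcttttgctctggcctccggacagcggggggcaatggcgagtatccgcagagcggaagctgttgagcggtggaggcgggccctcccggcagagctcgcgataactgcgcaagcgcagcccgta
Rpl3l (chr17:24727676-24727850, plus strand): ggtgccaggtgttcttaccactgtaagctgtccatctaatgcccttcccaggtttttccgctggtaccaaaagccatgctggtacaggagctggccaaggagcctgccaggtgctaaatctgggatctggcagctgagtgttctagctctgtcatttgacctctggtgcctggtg
The Rpl12 and Rps16 windows hold GC boxes, Rps18 an ETS-type site, Rps6 an ETS-type site and a CTCTTT tract, and Rpl7l1 a GC box and a CTTTCC tract. The Rps15 and Rpl3l windows hold none of the 6 motifs.

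Over longer windows, from 250 bases before to 50 bases after the start, 64 of the 84 measured genes had a promoter in the RefSeq table. CCGGAAG occurred in 35.9% of them and in 9.14% of all 27025 promoters of the table. GGGCGG occurred in 57.8% against 35.9%, CTCTTT in 40.6% against 23.0% and CTTTCC in 43.8% against 26.4%. TATAAA occurred in 12.5% against 14.2% and CACGTG in 7.81% against 7.24%. Both strands were read, and CTCTTT and CTTTCC can share bases. These are matches of letters and not measured binding sites.

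The stalk proteins Rplp0, Rplp1 and Rplp2, which recruit the GTPases of translation, gave differences above 0 that did not pass. Rplp0 had 9.13, 9.13 and 9.01 in KO hearts, against 9.05, 8.85, 8.92 and 8.76 in control hearts, a difference of 0.19 (adjusted p = 0.276). Rplp1 differed by 0.34 with no overlap between the groups (adjusted p = 0.10), and Rplp2 by 0.11 with overlap (adjusted p = 0.515). Rplp0 is often used to normalize quantitative PCR, and here it lay below the median of the family.

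Several proteins known for other roles had differences above 0 that did not pass, from 0.20 for Rps14 to 0.55 for Rps27a. Rps27a, made as a fusion with ubiquitin, had 8.37, 8.26 and 8.21 in KO hearts, against 7.85, 8.09, 7.46 and 7.52 in control hearts. Every KO heart was higher, by 0.55 ± 0.18 (adjusted p = 0.0567 by limma, 0.0148 with the slide row as a block). Rpl5 and Rpl11, which with the small ribosomal RNA of the large subunit bind Mdm2 and so restrain the breakdown of p53, differed by 0.40 (adjusted p = 0.0726) and 0.38 (adjusted p = 0.0599). Rpl23, another Mdm2 partner, differed by 0.24 (adjusted p = 0.185). None of these 3 overlapped between the groups.

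Rps19 and Rps14, whose loss causes anaemias in humans, differed by 0.46 (adjusted p = 0.0766) and 0.20 (adjusted p = 0.232), again without overlap. Rpsa, also known as the laminin receptor precursor, differed by 0.37 (adjusted p = 0.146), and Rps3, at the channel where mRNA enters, by 0.33 (adjusted p = 0.111). Rpl13a, which in human cells leaves the ribosome to silence inflammatory mRNAs, differed by 0.40 (adjusted p = 0.0816). Rpl38, needed in mouse embryos for the translation of Hox mRNAs, differed by 0.36 (adjusted p = 0.108), and Rps25, which some viral and cellular mRNAs need for initiation, by 0.26 (adjusted p = 0.152). In all 5 of these the KO hearts lay above the control hearts.

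Among the genes with differences nearest to 0 were Rps29, Rps24, Rps23rg1 and Rpl36. Rps29, a small zinc-binding protein of the small subunit, had 8.19, 8.15 and 8.25 in KO hearts, against 8.27, 8.22, 8.20 and 8.27 in control hearts. The groups overlapped, and the difference of -0.04 turned positive, 0.11, under quantile normalization. Rps24 differed by 0.07, Rps23rg1 by 0.08 and Rpl36 by 0.09.

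Rps24 is spliced into several mRNAs, and its 3 probes name 3 different RefSeq transcripts. Their differences were 0.07, -0.15 and 0.11, and none passed (adjusted p = 0.673, 0.353 and 0.472 by limma over all 26576 probes kept). The probe at -0.15 gave 7.81, 7.79 and 7.78 in KO hearts, against 8.04, 7.84, 7.95 and 7.93 in control hearts. On that probe the KO hearts were all lower, and on the other probes the groups overlapped.

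Among the paralogs, Rpl3l stood apart. It had log2 signals of 2.76, 3.22 and 3.07 in the KO hearts, against 4.48, 3.52, 5.39 and 5.28 in the control hearts. Every KO heart was below every control heart, although control heart 2 lay close to the KO hearts. The fall was 1.65 ± 0.43 on the log2 scale (adjusted p = 0.0303 by limma), leaving a signal 0.318 times that of the control hearts. The difference was -1.24 within the first slide row, -2.19 within the second and -1.81 with the row as a block (adjusted p = 0.00652). The call held without control heart 2, with a difference of -2.03 (adjusted p = 0.00827). It was lost without any other 1 heart, where the differences were -1.75 to -1.41 and the adjusted p between 0.0571 and 0.118.

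Rpl3, the gene that Rpl3l replaces in muscle ribosomes, had 7.49, 7.45 and 7.29 in the KO hearts, against 6.82, 7.20, 6.10 and 6.27 in the control hearts. All KO hearts were higher, and its difference of 0.81 ± 0.27 was the largest above 0 in the family but did not pass (adjusted p = 0.0578 by limma). With the slide row as a block it was 0.90 (adjusted p = 0.0134). Across the control hearts the order of Rpl3 was the reverse of that of Rpl3l: control heart 2 had the highest Rpl3 and the lowest Rpl3l, and control hearts 3 and 4 had the lowest Rpl3 and the highest Rpl3l. The log2 ratio of Rpl3l to Rpl3 was lower in KO hearts by 2.46 (exact two-sided permutation test over 35 splits, p = 0.0571, Benjamini-Hochberg adjusted over 6 paralog pairs 0.0857).

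Rpl7l1, a diverged relative of Rpl7, had 0.13, 0.35 and -0.02 in KO hearts, against -0.33, -0.33, -0.55 and -0.50 in control hearts. The groups did not overlap, and the rise was 0.58 ± 0.14 (adjusted p = 0.0249 by limma), the lowest adjusted p in the family. Rpl7 itself differed by 0.21 (adjusted p = 0.277). The ratio of the pair was higher in KO hearts by 0.37, with an exact permutation p of 0.0286, the smallest that 35 splits allow, and 0.0857 after adjustment over the 6 pairs.

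Rpl36al, an autosomal copy of the X-linked Rpl36a, had 5.95, 5.79 and 5.69 in KO hearts, against 5.46, 5.57, 5.12 and 5.0 in control hearts. It did not overlap between the groups and differed by 0.52 (adjusted p = 0.0615 by limma, 0.0124 with the slide row as a block), while Rpl36a differed by 0.29 (adjusted p = 0.263). The pair's ratio differed by 0.24 (exact permutation p = 0.0571, 0.0857 adjusted). Rpl22l1 differed by 0.14 (adjusted p = 0.692), with the opposite sign, -0.18, in the first slide row, and Rpl22, an RNA-binding protein that translation can do without, by 0.40 (adjusted p = 0.0755). Rps27l, a p53 target in human cells, differed by 0.23 (adjusted p = 0.242) and Rps27 by 0.13 (adjusted p = 0.435). Their pair ratios differed by -0.26 (exact permutation p = 0.229, 0.274 adjusted) and 0.10 (exact permutation p = 0.286 and 0.286 adjusted).

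The other paralogs were below the filter. Rpl10l, a copy of Rpl10 used in the male germline, was well above background on 0 arrays, and Rpl39l, a copy of Rpl39 also known from the male germline, on 2 KO and 2 control arrays. Their main genes Rpl10 and Rpl39 differed by 0.26 (adjusted p = 0.195) and 0.24 (adjusted p = 0.25). The retrogene copies Rpl32l, Rpl37rt and Rps23rg1 differed by 0.42, 0.32 and 0.08 and did not pass. Rpl37 and Rps27rt had no named probe.

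Many ribosomal protein genes have processed pseudogenes and near-identical copies, and a probe can bind RNA from them. Of the 51 genes with several probes that passed the filter, 39 had probe differences within 0.2 of each other, with a median range of 0.09, and 0 had probes called in opposite directions. In 6 genes the probes differed in sign. One of these was Rps25, whose dimmer probe gave -0.27 against 0.26 for the brighter, so that the mean over probes was -0.005.

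The pseudogene symbols left out by the rule were Rps4l, Rpl31-ps12, Rpl34-ps1 and Rps15a-ps6. Rps4l, which RefSeq lists as a transcribed pseudogene, had 3.56, 3.50 and 3.16 in KO hearts, against 2.32, 2.69, 1.99 and 2.51 in control hearts. It rose by 1.03 ± 0.20 (adjusted p = 0.0154 by limma), while Rps4x, the X-linked gene it resembles, differed by 0.28 (adjusted p = 0.126). The ratio of the pair differed by 0.75 (exact permutation p = 0.0286, 0.0857 adjusted). None of the 6 pairs passed after adjustment. However, 1 pair by itself could not pass over 6 pairs even at 0.0286, the smallest permutation p that 35 splits allow. The adjusted values therefore do not show that a pair moved alike.

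Other components of the ribosome that the symbols do not catch did not pass. Rack1, a scaffold on the small subunit, had 8.71, 8.66 and 8.63 in KO hearts, against 8.40, 8.38, 8.05 and 8.09 in control hearts, a difference of 0.43 without overlap (adjusted p = 0.0570 by limma, 0.0214 with the slide row as a block). Fau, made as a fusion of a ubiquitin-like protein with a small subunit protein, differed by 0.13 (adjusted p = 0.430).

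The genes around the ribosome were read from gene lists beside the family, and their counts stand against 10.2% of all features that rose and 15% that fell. The ribosome assembly list also holds the transcription factor Myc, which rose by 2.68, and RNA polymerase I genes such as Polr1a. Of its 30 genes, all measured, 18 rose and 0 fell, with a median difference of 0.81. Taken as the mean over the list of each gene's deviation from its own mean, they stood at 0.66, 0.64 and 0.06 in the KO hearts, against -0.35, -0.21, -0.37 and -0.44 in the control hearts, so KO heart 3 was the lowest KO heart but above every control heart. Nolc1, a nucleolar chaperone, rose by 1.24 (adjusted p = 0.0123 by limma), Eif6, which keeps new large subunits from joining too early, by 1.47 (adjusted p = 0.0131), and Nop58, a core protein of the RNA-guided methylation complex, by 1.41 (adjusted p = 0.0143). Of 8 chaperones that escort single ribosomal proteins, 3 rose and 0 fell, with a median of 0.44. Their list means were 0.51, 0.42 and -0.04 in the KO hearts, against -0.09, -0.23, -0.30 and -0.27 in the control hearts, and KO heart 3 lay close to control heart 1. Grwd1, which escorts Rpl3, rose by 1.31 (adjusted p = 0.0149), Rpf2, which helps to load Rpl5 and Rpl11, by 0.97 (adjusted p = 0.0317), and Rps19bp1 by 0.61 (adjusted p = 0.0387).

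Mitochondrial ribosomal proteins, taken by symbol alone as Mrpl or Mrps followed by a number, ran the other way. Of 77 measured, 0 rose and 40 fell, with a median difference of -0.48, where 10.2% of all features rose and 15% fell. The differences of Mrpl55 and Mrps35 were -1.09 and -1.09 (adjusted p = 0.0123 and 0.0123 by limma). Mrpl55 had 4.95, 5.01 and 5.40 in KO hearts, against 6.32, 6.03, 6.13 and 6.34 in control hearts, with no overlap. Of the 77 genes 6 had a difference above 0, against 81 of the 84 cytosolic genes.

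**Figure D5:**
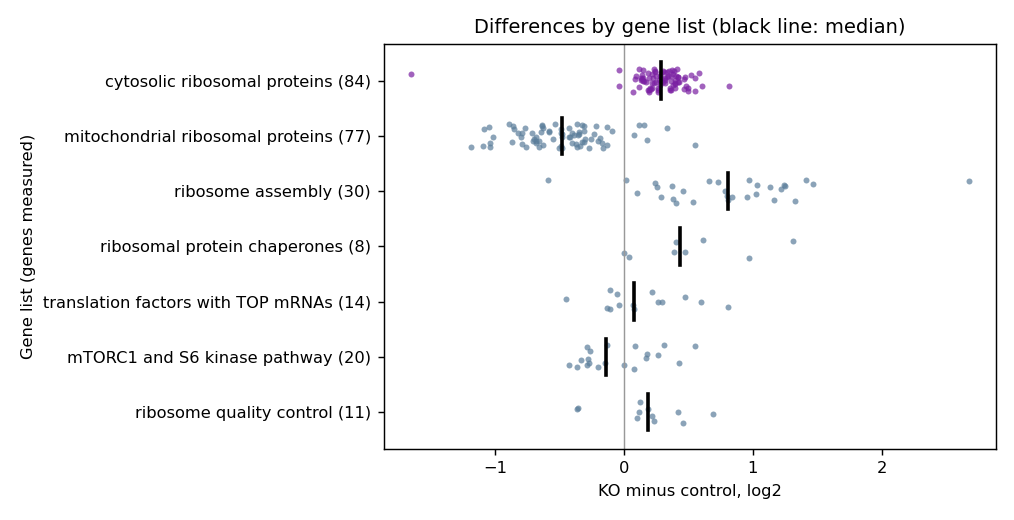
Difference in log2 signal, KO minus control, for each measured gene of 7 gene lists, 1 point per gene and a black line at the median of each list. The cytosolic ribosomal proteins form a narrow group with a median of 0.29, ribosome assembly genes have a median of 0.81 and mitochondrial ribosomal proteins one of -0.48.

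Translation factors whose mRNAs also start with a pyrimidine tract had a median difference of 0.07, and 1 of 14 rose. That gene was Pabpc1, the cytoplasmic poly(A)-binding protein, with 0.80 (adjusted p = 0.0427 by limma). The elongation factor Eef1a1 differed by 0.60 (adjusted p = 0.0831) and the histone chaperone Nap1l1 by 0.47 (adjusted p = 0.0937). In the mTORC1 and S6 kinase pathway, 1 of 20 genes rose and the median was -0.14. Eif4ebp1, the repressor of cap-dependent initiation that mTORC1 inactivates, rose by 0.55 (adjusted p = 0.0408), while the inhibitor subunit Tsc1 differed by -0.43 (adjusted p = 0.0548) and Larp1, which binds pyrimidine-tract mRNAs, by 0.43 (adjusted p = 0.0848).

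Of 11 ribosome quality control genes, 2 rose and 0 fell, with a median of 0.18. They were Abce1, which recycles ribosomes, with 0.69 (adjusted p = 0.0231 by limma) and Pelo, which rescues stalled ones, with 0.45 (adjusted p = 0.0388). In the list around p53, which free Rpl5 and Rpl11 can activate, 4 of 8 genes rose and 1 fell. Bax, which promotes cell death, rose by 0.78 (adjusted p = 0.0151), Cdkn1a, which halts the cell cycle, by 1.55 (adjusted p = 0.0347), and Ccng1, a cyclin that p53 induces, fell by 1.12 (adjusted p = 0.0202).

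Markers of several cell types moved with the groups as well. For each heart, the mean over a marker list of the log2 deviation from each gene's own mean was used. Counts of markers stand against 10.2% of all features that rose and 15% that fell. The 8 cardiomyocyte markers, all measured, had list means of -0.70, -0.42 and -0.26 in KO hearts, against 0.35, 0.01, 0.58 and 0.45 in control hearts, and 4 fell, among them Tnni3 by 1.19 (adjusted p = 0.0126 by limma). Of 10 neutrophil markers, 7 were measured and 6 rose, with a median of 3.14, and list means of 1.90, 2.17 and 0.66 in KO hearts, against -1.20, -0.61, -1.36 and -1.55 in control hearts. Csf3r, the brightest of the 7, did not rise, with -0.23 (adjusted p = 0.442 by limma). The control means of Cxcr2 and Mmp9 were -5.49 and -5.79, near the signals of Rpl10l, which was well above background on 0 arrays. A gene can pass the filter through the KO hearts alone, so the count and the median may partly come from the filter. Ngp and Retnlg, further neutrophil markers, did not pass the filter on dim signals.

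Of 10 monocyte and macrophage markers, all measured, 4 rose and the median was 1.16. Their list means were 0.58, 0.31 and 1.05 in KO hearts, against -0.07, 0.18, -1.01 and -1.05 in control hearts. Control hearts 1 and 2 were thus the higher ones for these markers as for the ribosomal proteins. They were also the higher ones for the neutrophil list and for the fibroblast list, with 0.46, 0.27, -0.16 and -0.08. The same held for the smooth muscle and pericyte list, with 0.33, 0.18, 0.03 and -0.38. They were the lower ones for the endothelial list, with -0.01, -0.14, 0.41 and 0.51, and for the cardiomyocyte and erythroid lists. Of the other marker lists, 1 rose and 2 fell of 8 fibroblast genes, and 0 rose and 1 fell of 7 endothelial and of 7 smooth muscle genes. Over all features 10.2% rose and 15% fell, so 1 fall in 7 genes is near the share of the whole array. None of 3 measured B and T cell genes passed, and all 3 erythroid and all 5 liver genes measured fell. The liver genes had list means of -2.10 to -1.83 in KO hearts, against 0.56 to 2.32 in control hearts. The KO means of Alb, Fgb and Fabp1 were -6.02, -6.11 and -6.42, near the signals of Rpl10l. A gene can pass the filter through the control hearts alone, so the falls of such genes may partly come from the filter. The part of cell makeup in the ribosomal protein difference was not tested.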

How the data were processed

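Heart apex RNA of 3 KO and 4 control hearts was labelled with Cy3 (100 ng per sample, per the labels) and hybridised to Agilent arrays. The authors deposited scanner tables from Feature Extraction 11.0.1.1, per the file headers, with a processed intensity per spot that is already background-corrected, flags for outlier, saturated and well-above-background spots, and the mm9 build of the array design. They also deposited a table of log2-like values centred on the median of each probe. Its columns correlated with the processed signals at r between 0.986 and 0.998, its column medians were 0 except 0.0079 (control heart 4) and -0.0021 (KO heart 2), and its scale is not stated.

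Processed intensities, as deposited, were turned into log2 values minus each array's 75th percentile, without control and outlier spots. Spots of a probe were averaged. A probe was kept if at least 3 arrays of 1 group had it well above background, which left 26576 probes, and a gene was represented by its brightest kept probe. Symbols came from the array's accessions through the RefSeq table: 28026 of 55681 probes had 1 symbol, 27655 none and 0 several. limma 3.58.1 (R 4.3.3) compared KO with control hearts over 22344 features, and the fit was tested on simulated data. Paralog ratios used exact two-sided permutation tests over 35 splits of the hearts, adjusted over 6 pairs. Only the number of arrays sets the precision. If hearts were handled together, p-values measure only the spread between these samples.

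Named were every gene that passed, all paralogs with their main genes, 15 proteins with well known roles, the 5 genes nearest to 0, other ribosome components such as Fau and Rack1, and up to 3 genes of lowest p from each other list. Some genes that this rule takes in are not reported here. The genes and lists were chosen with earlier results of these data known. The alternatives tried were an unmoderated test, trended and robust variance, array weights, a threshold of 0.1, normexp with an offset of 50, median centring, quantile normalization, the authors' table, both other filters (none, and all arrays), means over probes, saturated probes dropped, omission of each heart, and a block for the replicate number or for the slide row. The fits within slide rows were added after seeing the data.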

Additional observations from a re-analysis of the deposited data

How the results depend on the processing

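The median difference of the family was 0.29 and stayed between 0.22 and 0.41 in the alternatives, 0.24 to 0.34 with 1 heart left out. The count of genes that rose, 6 by limma, was 14 with normexp, 26 with quantile normalization and with the authors' table, 25 with trend and robust variance, 41 with array weights, 35 with the slide row as a block and 28 at a threshold of 0.1. It was 0 without the filter on dim probes, in the unmoderated test and within slide row 1, and 1 within slide row 2, where 24, 47, 0 and 33 genes were higher at an unadjusted p of 0.05. Of all features, 0.901%, 0.112%, 1.1% and 3.11% rose in those fits. With array weights 24.0% of all features rose, and with quantile normalization 11.7%. With 1 heart left out it was 0 to 13. The single fall, of Rpl3l, was lost (0 genes) without the filter, in the unmoderated test and with the replicate number as a block. The count that fell was 0 to 1 with 1 heart left out. Slide row 1 held 1 KO heart, so no counts are given for it here. The cause of these moves was not tested, and the fits with fewer hearts also differed in which hearts they used. Replicate numbers did not pair the hearts: deviations of equal numbers correlated at 0.18, -0.22 and -0.20. With the replicate block, control heart 4 is alone in its block and so without weight. In that fit 0 genes rose and 0 fell, and the median difference was 0.24. At an unadjusted p of 0.05, 6 were higher, where 12% of all features were, and 1 was lower. The paralog ratios kept their sign in the 13 alternatives run for each; with a heart left out, too few splits remain for any to pass. Over single genes, 1624 of 1848 combinations of gene and alternative kept their side of the threshold, 78 calls were lost, 146 were gained and 0 turned round. Below the threshold, the signs of Rpl22l1, Rps25 and Rps29, among others, turned in some alternatives. Effects of Cre, of cell makeup and of slide column could not be separated from the deletion, and probes may also bind pseudogene transcripts.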
